A study of Homo sapiens with 62 samples.

Results

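The genes described here are 43 human genes that mark the stages by which cortical excitatory neurons are made, followed through organoids and embryonic stem cells. Each was taken by its symbol from the deposited table of TPM, a transcript abundance scaled for transcript length and library total. The table held 37415 rows, and the 43 symbols matched 45 rows. Of the symbols, 14 belong to cortical progenitors, 4 to the intermediate step between progenitor and neuron, and 25 to neurons. MAPT, which encodes the microtubule protein tau, matched 3 rows, none above 0.844 TPM in any library. It is left out of the tests. The other 42 genes had a single row each, and among them the Notch target HES5 was listed at 0 in every library and could not be tested. Whether the MAPT and HES5 values reflect expression or how reads were assigned was not tested.

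In the developing cortex, radial glia carry transcription factors such as PAX6 and LHX2 and the filament proteins nestin and vimentin. They divide next to the ventricle and give rise, often through intermediate progenitors that express NEUROG2 and EOMES, to glutamatergic neurons. The young neurons switch on NEUROD2, NEUROD6 and TBR1, extend axons with the help of DCX, STMN2 and GAP43, and later build synapses. Inhibitory interneurons come from a different place, the ventral telencephalon, and use DLX factors and the GABA-synthesising enzymes instead.

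The series measured polyadenylated RNA in 62 libraries, in 31 groups of 2, from the human embryonic stem cell line WIBR3 and organoids made from it with PF-127, a thermoreversible block copolymer used to assemble spheroids. All organoids and cells here share that line. There were 12 cortical libraries, 28 from organoids labelled nephron, hepatic or lung, and 22 from undifferentiated stem cells. The wild-type (WT) cortical groups were PN96 at day 53, Chip at day 54 and SPIN at day 60. PN96, Chip and SPIN are treatment labels that name culture formats and are not spelled out further. The remaining cortical groups, all PN96 at day 19, were control organoids labelled CTR and organoids of NEAT1-/- clone 1 and clone 2. NEAT1 is a long non-coding RNA that holds nuclear paraspeckles together. CTR and the same clones were also measured in PN96 nephron organoids at day 13, hepatic organoids at day 21, lung organoids at day 19 and stem cells. The other organoids were WT: PN96 nephron at day 7, PN96 hepatic at days 17 and 21, Chip hepatic at day 17 and PN96 lung at day 20. WT stem cells were sampled at 0, 1, 4 and 24 hours with PF-127 (treatment PN96) or without it (treatment NT96). The sample titles of both arms begin with PN96, so in these titles PN96 does not tell the arms apart.

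Separate cultures are not stated for the paired libraries, so every p-value reflects library-to-library spread that may be technical. Only TPM were used, so the sequencing depth is unknown, and with 2 libraries a group the precision is low. The number of genes at 1 TPM or more ran from 16989 to 20396 per library. NEAT1 was lower in every clone library than in the CTR libraries of the same cell type, in all 5 cell types. In cortical libraries it stood at 5.47 and 8.43 TPM in CTR, at 0.0995 and 0.131 in clone 1 and at 0.257 and 0.273 in clone 2. PAX6, a factor of cortical radial glia, stood at 111 and 144 TPM in CTR at day 19, 41.1 and 53.9 in PN96 at day 53, 36.9 and 60.4 in Chip and 33.7 and 25.9 in SPIN, so this marker of the label was present in each of these groups. Some libraries stood apart, and the results that rest on them are given with and without them. The PN96 day 53 libraries differed from each other in intermediate and excitatory neuron genes, and the SPIN libraries held genes of other tissues.

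NEUROG2, NEUROD2 and NEUROD6 are proneural and neuronal basic helix-loop-helix factors, a family that binds E-box sequences. Their promoters are shown because NEUROD2 and NEUROD6 were among the genes with the largest change with age and all 3 differed widely between the day 53 libraries. The sequences are the 250 bases upstream of the RefSeq start in GRCh38.p14, on the minus strand, at chr7:31340727-31340976 for NEUROD6, chr17:39607921-39608170 for NEUROD2 and chr4:112516181-112516430 for NEUROG2. Capitals mark the E-box letters CAGATG or, read on the other strand, CATCTG.
NEUROD6: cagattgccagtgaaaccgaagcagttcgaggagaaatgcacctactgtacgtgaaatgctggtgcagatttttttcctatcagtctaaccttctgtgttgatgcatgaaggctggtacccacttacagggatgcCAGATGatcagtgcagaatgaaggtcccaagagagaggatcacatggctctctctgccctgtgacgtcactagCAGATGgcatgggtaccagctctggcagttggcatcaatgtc
NEUROD2: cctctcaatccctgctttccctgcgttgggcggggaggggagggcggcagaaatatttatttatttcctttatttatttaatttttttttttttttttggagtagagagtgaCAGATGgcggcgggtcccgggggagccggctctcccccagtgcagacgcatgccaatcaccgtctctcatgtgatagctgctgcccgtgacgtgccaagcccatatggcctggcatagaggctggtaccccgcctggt
NEUROG2: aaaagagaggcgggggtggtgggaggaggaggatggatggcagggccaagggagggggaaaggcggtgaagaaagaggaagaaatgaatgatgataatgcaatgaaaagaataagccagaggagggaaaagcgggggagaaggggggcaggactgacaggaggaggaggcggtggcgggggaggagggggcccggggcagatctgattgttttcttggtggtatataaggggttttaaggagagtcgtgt
The NEUROD6 window held the letters at 115 and 42 bases before the start, the NEUROD2 window at 138 bases, and the NEUROG2 window nowhere, which says only that these letters are not in that window. The same letters were found in 12.2% of 35116 RefSeq promoter windows of this length. Of the 42 genes, 34 had a window in the table and 6 of those held the letters (ELAVL4, MAP2, NEUROD2, NEUROD6, PAX6 and RBFOX3), against 14.6% of 27305 genes with any window. A match is a description of the letters and not of binding.

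The first comparison asked how progenitor and neuron genes stood in PN96 cortical organoids at day 53 against day 19. Day 53 carries the label WT and day 19 the label CTR, so age and label cannot be told apart. Neuron genes were mostly higher at day 53 and the common progenitor genes mostly lower. Among the listed outer radial glia genes TNC and HOPX rose, while PTPRZ1 changed little and was not called. Of 41 genes that passed the filter (at least 1 TPM in 2 libraries of the cortical fit), 21 rose and 8 fell at a Benjamini-Hochberg adjusted p under 0.05 in limma. Over all 22019 genes tested, 39.5% were called, 31.1% higher and 8.36% lower. The median log2 change was 0.88 for the listed genes and 0.36 over all genes. By class, 17 of 24 neuron genes rose and 2 fell (median 1.59), 4 of 13 progenitor genes rose and 5 fell (median -0.36), and 1 of 4 intermediate genes fell (median -1.08). These are counts over genes that passed the filter, and in bulk RNA fewer cells of a type and less RNA per cell cannot be told apart. Rescaling the libraries by size factors took the median of all genes to 0.05 and the calls to 15 higher and 11 lower. HOPX, LHX2, NEFL, OTX1, SYT1 and TUBB3 then lost their call, and ELAVL4, EOMES and NES were called lower. With the trend on base composition removed, an alternative chosen after seeing the data, 7 listed genes lost their call and 2 gained one. With the trend on transcript length removed, 5 lost their call and 3 gained one.

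**Figure D1:**
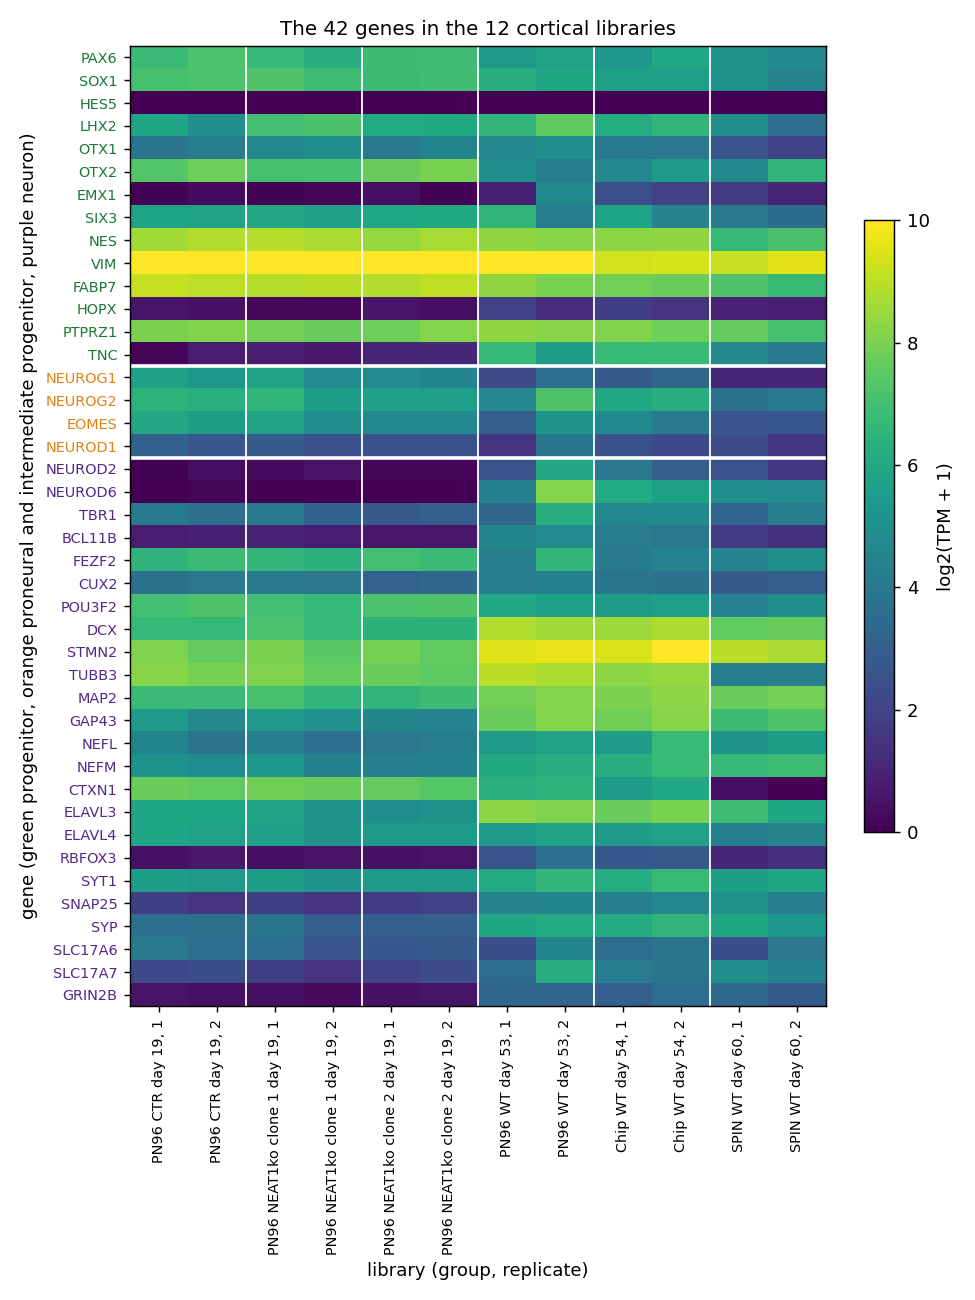
Level of 42 genes, as log2(TPM + 1), in the 12 cortical libraries, with genes in rows by role and libraries in columns by group. Colour runs from 0 to 10 and is capped there; from day 19 to PN96 at day 53, 17 of 24 neuron genes rose and 2 fell (CTXN1 and POU3F2), and the PN96 day 53 libraries differ from each other for NEUROD6, from 19.9 to 279 TPM.

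Summed over the 14 progenitor genes, the level was 4223 and 4578 TPM in the CTR libraries of day 19 and 2475 and 2435 TPM at day 53. Summed over the 24 neuron genes it was 1534 and 1385 TPM at day 19 and 3028 and 3637 TPM at day 53. At day 19 the progenitor sum exceeded the neuron sum in both libraries, and at day 53 the neuron sum exceeded the progenitor sum in both. The 4 intermediate genes summed to 211 and 169 TPM at day 19 and to 36.8 and 208 TPM at day 53, where one library lay below both day 19 libraries and the other between them. VIM, which encodes the radial glia filament vimentin, made up the largest share of the progenitor sum in every cortical library named here.

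Among the radial glia transcription factors, OTX2, PAX6 and SOX1 fell while LHX2 and OTX1 rose. OTX2, a forebrain and midbrain patterning factor, stood at 161 and 223 TPM at day 19 and 31.5 and 17.2 TPM at day 53, a log2 change of -2.97 (SE 0.59, adjusted p = 0.00581). PAX6, which drives cortical radial glia, went from 111 and 144 to 41.1 and 53.9 TPM, a log2 change of -1.41 (SE 0.26, adjusted p = 0.00459). SOX1, a pan-neural progenitor factor, went from 135 and 145 to 79.3 and 57.2 TPM (log2 change -1.04, adjusted p = 0.00759). For these 3 genes every day 19 library lay above every day 53 library. LHX2, the selector gene of cortical identity, moved the other way, from 57.6 and 31.1 to 92.3 and 185 TPM, a log2 change of 1.60 (SE 0.48, adjusted p = 0.0321). OTX1, a relative of OTX2 found in deep cortical layers, also rose, from 13.5 and 17.5 to 23.9 and 31.4 TPM (log2 change 0.79, adjusted p = 0.0415). Both were higher in each day 53 library, yet their calls depended on the library taken. Without day 53 replicate 1 the LHX2 change was 2.10 (adjusted p = 0.0343) and without replicate 2 it was 1.10 (adjusted p = 0.175). OTX1 lost its call with either one left out. SIX3, a rostral forebrain factor, stood at 54 and 52.5 TPM at day 19 and at 91.9 and 18.2 TPM at day 53, where the libraries lay on either side of day 19. EMX1, a marker of the dorsal cortical lineage, was below 1 TPM in both day 19 libraries and stood at 0.856 and 26.9 TPM at day 53 (log2 change 2.68, adjusted p = 0.0754).

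The structural radial glia genes were lower or close. VIM stood at 2479 and 2722 TPM at day 19 and 1044 and 1149 TPM at day 53, and fell with a log2 change of -1.24 (SE 0.16, adjusted p = 0.00111). FABP7, a fatty acid binding protein of radial glia, fell from 554 and 509.8 to 322 and 256 TPM (log2 change -0.89, adjusted p = 0.00629). NES, which encodes nestin, was at 394 and 459 TPM at day 19 and 321 and 298 TPM at day 53, a log2 change of -0.46 (SE 0.16, 95% interval -0.83 to -0.08, adjusted p = 0.0558). In all 3 the age groups did not overlap. Outer radial glia, a progenitor type that is abundant in the human cortex, are marked by HOPX, PTPRZ1 and TNC. TNC, an extracellular matrix glycoprotein, went from 0.132 and 0.733 to 104 and 46.6 TPM, the second largest log2 change among the 41 genes at 5.66 (SE 0.39, adjusted p = 0.000113). HOPX rose only from 0.508 and 0.381 to 2.87 and 1.39 TPM, and its log2 change of 1.08 became 0.73 (adjusted p = 0.205) without day 53 replicate 1. PTPRZ1, a receptor phosphatase, was high at both ages, at 262 and 273 TPM at day 19 and 319.9 and 295 TPM at day 53, with a log2 change of 0.20 (SE 0.18, 95% interval -0.21 to 0.60, adjusted p = 0.399).

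Of the intermediate genes NEUROG1 fell, EOMES was lower in both day 53 libraries without a call, and NEUROG2 and NEUROD1 had day 53 libraries on both sides of day 19. NEUROG1, a proneural factor that commits progenitors to neurons, fell from 52.3 and 36.7 to 3.94 and 10.9 TPM, a log2 change of -2.55 (SE 0.41, adjusted p = 0.00245). EOMES, the defining factor of intermediate progenitors, was at 64.4 and 47 TPM and then at 7.26 and 35.1 TPM, a log2 change of -1.70 (SE 0.59, 95% interval -3.07 to -0.33, adjusted p = 0.0531). NEUROG2, the main dorsal proneural factor, was at 86.4 and 79.5 TPM and then at 23.6 and 148 TPM, so that the day 53 libraries lay below and above both day 19 libraries. Without day 53 replicate 1 its log2 change was 0.83 (adjusted p = 0.0344), and without replicate 2 it was -1.77 (adjusted p = 0.00375), a change of sign with a call each way. With 1 day 53 library left out, EOMES was called without replicate 2, at -2.76 (adjusted p = 0.00363), against -0.63 (adjusted p = 0.208) without replicate 1. NEUROD1, which follows the neurogenins, was at 7.51 and 5.39 TPM and then at 1.95 and 13.6 TPM, again with day 53 libraries on both sides of day 19.

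The transcription factors of excitatory neurons included large rises and wide spreads between the day 53 libraries. NEUROD6, a factor of postmitotic cortical glutamatergic neurons, was at 0 and 0.131 TPM at day 19 and 19.9 and 279 TPM at day 53. Its log2 change on the log2(TPM + 1) scale was 6.17 (SE 0.96, adjusted p = 0.00218), and it was called with either day 53 library left out, at 8.04 without replicate 1 and 4.298 without replicate 2. NEUROD2, its close relative, went from 0.0407 and 0.309 to 5.06 and 65.4 TPM, a log2 change of 4.103 (SE 0.96, adjusted p = 0.0122), with 5.83 and 2.38 without replicates 1 and 2, both called. For both genes the lower day 53 library stood above both day 19 libraries. BCL11B (CTIP2), a factor of deep-layer projection neurons and also of striatal neurons, was at 0.685 and 0.844 TPM and then at 22.4 and 27.4 TPM, a log2 change of 3.87 (SE 0.24, adjusted p = 9.03e-05) with close day 53 values. POU3F2 (BRN2), a factor of late progenitors and upper-layer neurons, fell from 128 and 153 to 63.1 and 50.2 TPM (log2 change -1.30, adjusted p = 0.00282). TBR1, which marks early-born deep-layer neurons, was already at 16.3 and 12 TPM at day 19 and stood at 8.93 and 76.5 TPM at day 53, a log2 change of 0.89 (SE 0.81, 95% interval -0.98 to 2.75, adjusted p = 0.413). It was called at 2.37 (adjusted p = 0.00917) without replicate 1 and stood at -0.60 (adjusted p = 0.312) without replicate 2. FEZF2, which specifies subcerebral projection neurons and is also used by early forebrain progenitors, was at 89.9 and 112 TPM at day 19 and 19.3 and 93.9 TPM at day 53 (adjusted p = 0.146). CUX2, an upper-layer gene, was at 12.5 and 14.9 TPM at day 19 and 17.2 and 19.9 TPM at day 53 (adjusted p = 0.115).

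The genes of the neuronal cytoskeleton and of axon growth rose in 7 of 8 cases. STMN2, a microtubule regulator of growing axons, was the most abundant neuron gene at day 53, at 270.3 and 194 TPM before and 754 and 803 TPM after (log2 change 1.76, adjusted p = 0.000835). DCX, a microtubule protein of migrating neurons, went from 103 and 98.9 to 450.3 and 387 TPM, a log2 change of 2.04 (SE 0.13, adjusted p = 9.03e-05). GAP43, a growth cone protein, went from 44.1 and 25.1 to 209.9 and 279 TPM, a log2 change of 2.83 (SE 0.28, adjusted p = 0.000356). All day 53 values lay above all day 19 values for these genes, and for MAP2, NEFM, NEFL and TUBB3, whose log2 changes were 1.20, 1.19, 1.41 and 0.80. NEFL, a neurofilament subunit, lost its call with either day 53 library left out, at adjusted p = 0.0623 and 0.116. CTXN1, which encodes the small membrane protein cortexin, was the exception and fell from 212 and 189.6 to 81.1 and 87.3 TPM (log2 change -1.24, adjusted p = 0.00259).

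Among RNA-binding proteins of neurons, ELAVL3 rose from 57.8 and 58.9 to 309 and 264 TPM (log2 change 2.27, adjusted p = 0.000809). RBFOX3, which encodes the antigen NeuN of mature neurons, rose from 0.377 and 0.573 to 4.98 and 11.7 TPM. ELAVL4 was at 59.3 and 53.1 TPM at day 19 and 43.5 and 52.5 TPM at day 53, with no call. Of the 6 synapse and transmitter genes, 5 rose. SNAP25, a SNARE protein of vesicle release, went from 2.72 and 1.85 to 21.4 and 21.6 TPM (log2 change 2.79, adjusted p = 0.000469). SYP, a synaptic vesicle protein, went from 11.6 and 11.8 to 60.2 and 67.7 TPM (log2 change 2.36, adjusted p = 0.000224). GRIN2B, an NMDA receptor subunit, was below 1 TPM at day 19 and at 8.98 and 8.60 TPM at day 53. The vesicular glutamate transporters, which define the glutamatergic type, did not move alike. SLC17A7 (VGLUT1) went from 3.80 and 4.36 to 11 and 75 TPM, a log2 change of 2.58 (SE 0.71, adjusted p = 0.0227) that was 3.91 without replicate 1 and 1.24 without replicate 2, called both ways. SLC17A6 (VGLUT2) was at 17 and 11.3 TPM at day 19 and 4.23 and 22.3 TPM at day 53, with a log2 change of -0.43 (SE 0.71, 95% interval -2.07 to 1.21, adjusted p = 0.659).

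**Figure D2:**
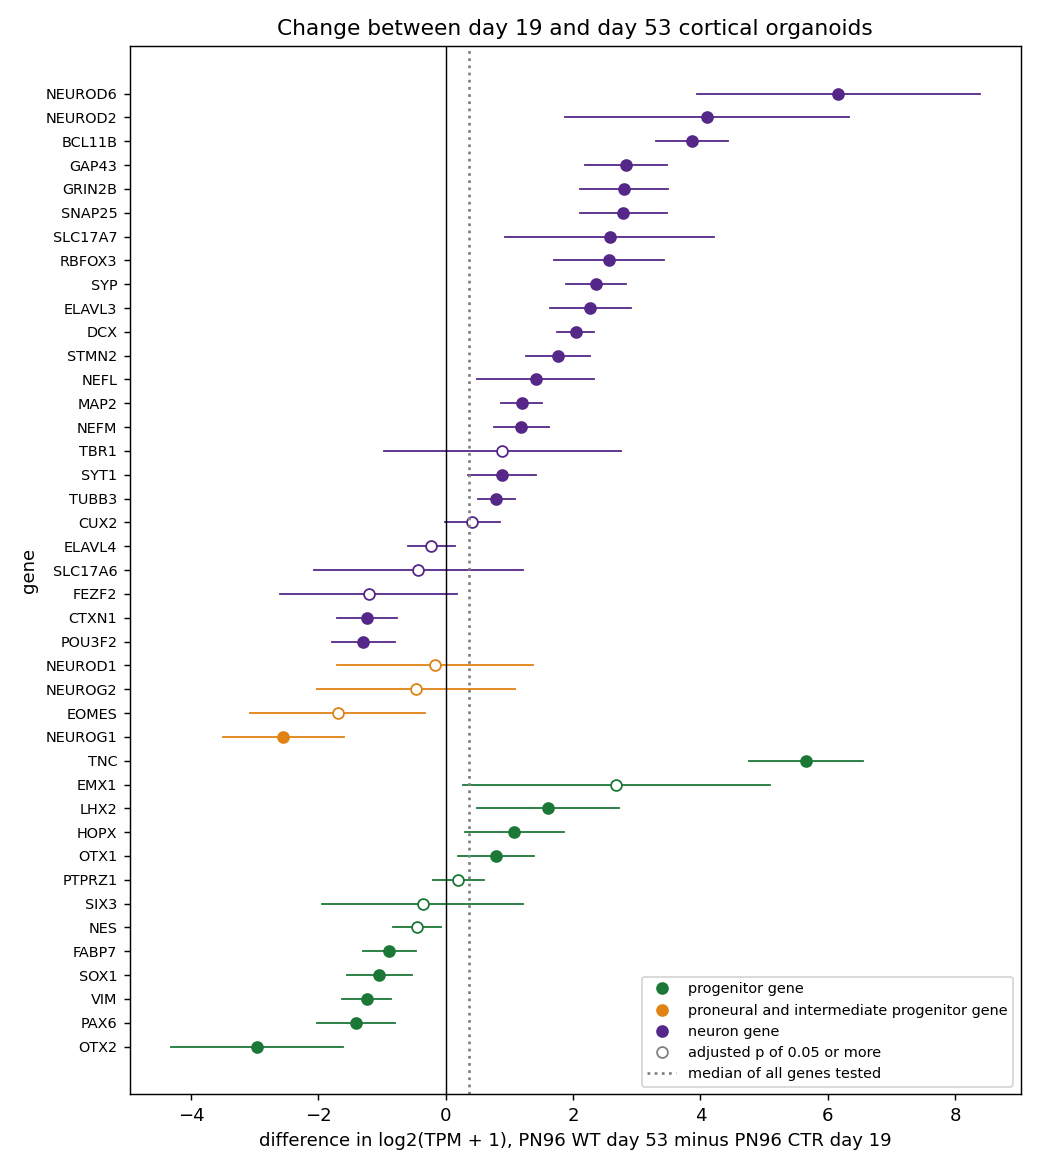
Log2 change from day 19 CTR to day 53 WT in PN96 cortical organoids for each gene, by role, with 95% intervals from limma; open points did not reach an adjusted p of 0.05, and the dotted line is the median of all genes at 0.36. The widest intervals belong to EMX1, NEUROD6, NEUROD2 and TBR1, and the narrow points far to the right are TNC and BCL11B.

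Further lists of the same stages moved in the same comparison. Of 16 other progenitor genes, 4 rose and 5 fell (median log2 change -0.34). Those that rose included the glial glutamate transporter SLC1A3 (3.09) and the Notch receptor NOTCH1 (1.45), and ID4 (-1.94) and FAM107A (-1.73) were the furthest down. Of 24 other neuron genes, 17 rose and 1 fell, with a median of 1.08. The largest rises were in the AMPA receptor subunit GRIA2 (4.43), NFIB (3.98), the NMDA receptor subunit GRIN1 (3.17) and CAMK2B (3.15), and SOX11, a factor of young neurons, fell (-0.93). All 7 tested genes of GABAergic interneurons rose, with a median of 4.92, and their summed level was 4.79 to 6.17 TPM at day 19 and 330 to 1124 TPM at day 53. Of 7 proliferation genes 1 rose and 3 fell. The part of the interneuron and proliferation genes in the results above was not tested.

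The PN96 day 53 libraries were set against each other because so many of the listed genes differed between them. Among genes with a mean of at least 5 TPM, 14 of 40 listed genes were at least 2-fold apart in TPM + 1, 12 higher in replicate 2 and 2 (SIX3 and TNC) higher in replicate 1. Over all genes at that level 2.54% of 14886 were. The 12 were EMX1, the 4 intermediate genes, NEUROD2, NEUROD6, TBR1, FEZF2, RBFOX3 and the transporters SLC17A6 and SLC17A7. Of these NEUROD6 differed most in TPM, at 19.9 and 279, followed by NEUROG2 at 23.6 and 148 and FEZF2 at 19.3 and 93.9. Several pan-neuronal genes were closer between the libraries: DCX was at 450.3 and 387 TPM, STMN2 at 754 and 803 and MAP2 at 234 and 284. The interneuron genes differed in the opposite direction. The 8 of them summed to 1124 TPM in replicate 1 and 330 TPM in replicate 2, a ratio of 3.41, and 7 of 8 were higher in replicate 1. DLX1, a ventral telencephalic factor, was at 291 and 83.4 TPM, DLX2 at 272 and 76.6 and GAD1, a GABA-synthesising enzyme, at 86 and 35.7. EMX2, a dorsal factor outside the listed genes, was at 27 and 119 TPM, and the markers of cortical hem and choroid plexus summed to 7.30 and 28.6 TPM. The difference between 2 single libraries has no replicate check. Among the listed genes 2 of 38 were 2-fold apart in Chip (SIX3 and NEFL; 2.39% of all genes), 3 of 32 in SPIN (LHX2, OTX2 and SLC17A6; 7.71%) and 0 of 31 in CTR at day 19 (1.23%).

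**Figure D3:**
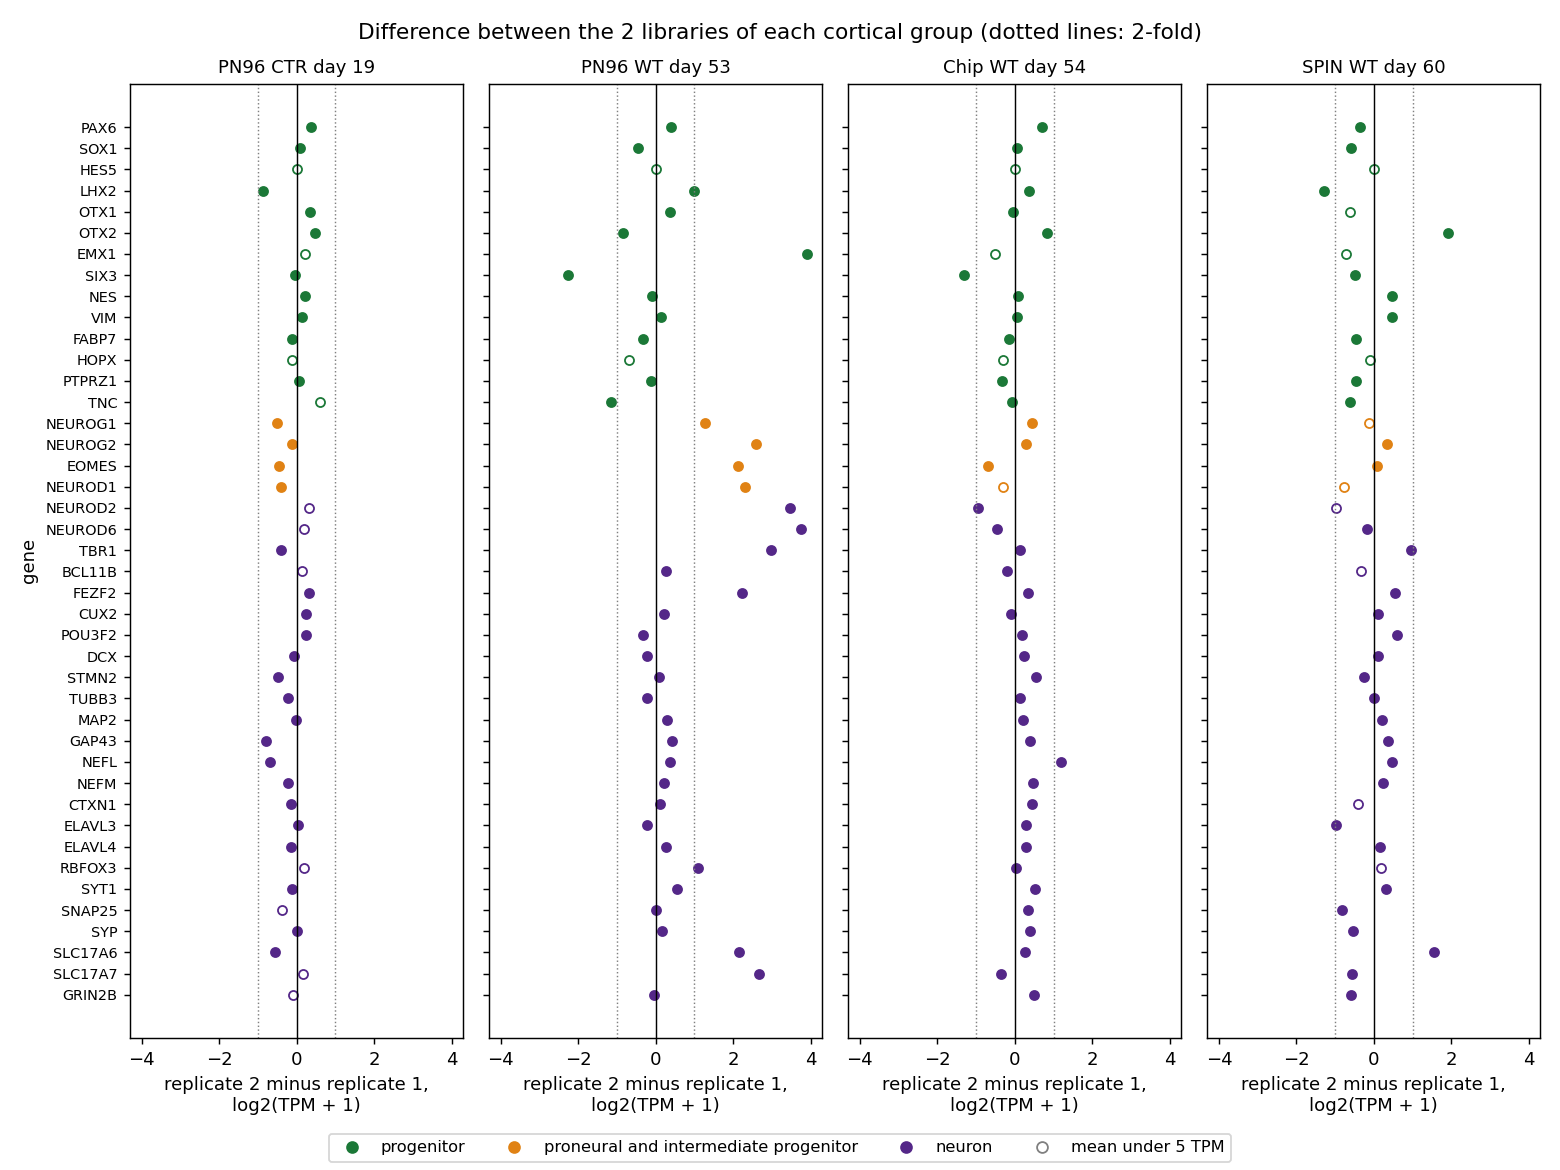
Log2 difference of replicate 2 minus replicate 1 for the listed genes, in 1 panel for each cortical group, with genes coloured by class. In PN96 at day 53 the 4 intermediate genes and NEUROD2, NEUROD6, TBR1 and FEZF2 sit to the side of replicate 2, with 12 genes at least 2-fold higher there, whereas 0 of 31 genes were 2-fold apart in CTR at day 19.

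The second comparison set Chip at day 54 against PN96 at day 53, which are 1 day apart. None of 41 listed genes was called by limma after Benjamini-Hochberg adjustment, against 0.309% of all genes (0.141% higher and 0.168% lower). At an unadjusted p under 0.05 there were 5 (OTX1, VIM, CTXN1, TUBB3 and CUX2). The share of all genes at that unadjusted cut-off is not given. The median log2 difference was -0.06 for the listed genes and 0.06 over all genes. VIM stood at 1044 and 1149 TPM in PN96 and 643 and 664 TPM in Chip, and had the smallest adjusted p of the set, with a log2 difference of -0.75 (SE 0.16, 95% interval -1.13 to -0.36, adjusted p = 0.147). TUBB3, a neuronal tubulin, stood at 505 and 433 TPM in PN96 and 315 and 343 TPM in Chip, a log2 difference of -0.51 (SE 0.13, 95% interval -0.80 to -0.21, adjusted p = 0.187). In both genes the Chip libraries lay below the PN96 libraries. VIM was called (log2 difference -0.75, adjusted p = 0.0282) when the SPIN libraries were left out of the fit, an alternative chosen after seeing the data. For other genes the interval limits the difference: it ran from -0.34 to 0.25 for DCX, at 374 and 438 TPM in Chip, and from -0.60 to 0.61 for PAX6, at 36.9 and 60.4 TPM. The 7 excitatory neuron transcription factors had a median difference of -0.46. They share the same libraries, and this median was not tested. Their Chip values lay within the range of the PN96 libraries for several of them: NEUROD6 at 70.2 and 50.9 TPM, TBR1 at 24.4 and 26.8 and NEUROD2 at 14.8 and 7.20. FEZF2 was at 16 and 20.4 TPM in Chip, close to the lower PN96 library. The progenitor sum was 1826 and 1813 TPM and the neuron sum 2697 and 3423 TPM. The interneuron genes summed to 693 to 745 TPM in Chip, between the PN96 libraries. Pluripotency genes summed to 8.99 and 152 TPM, the high value in Chip replicate 1, where DPPA4 was at 45.5 TPM against 4.76 in replicate 2. The part of these genes in the comparison was not tested.

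The third comparison set SPIN at day 60 against PN96 at day 53 and Chip at day 54, which differ from it by 7 and 6 days in age, so format and age cannot be told apart. Most listed genes were lower in SPIN, in progenitor, intermediate and neuron classes together. Against PN96, 1 of 41 genes was higher and 21 lower, where 41.1% of all genes were called, 18.3% higher and 22.8% lower. The median log2 difference was -1.12, against 0.00 over all genes. Of 13 progenitor genes 8 were lower (median -1.31), of 4 intermediate genes 2 were lower, and of 24 neuron genes 11 were lower and 1 higher (median -0.96). Against Chip, 22 of 41 were lower and none higher, with 36.3% of all genes called (13.8% higher and 22.5% lower), and the median was -0.86 against -0.06 over all genes. Both comparisons use the same SPIN libraries. Without Chip replicate 2 the count against Chip was 12. With libraries rescaled by size factors GAP43, NEUROG2 and STMN2 lost the call against PN96, and GAP43, PTPRZ1, STMN2, SYP and SYT1 lost it against Chip.

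The furthest of the listed genes was CTXN1, at 81.1 and 87.3 TPM in PN96, 44 and 60.3 in Chip and 0.336 and 0 in SPIN. Its difference on the log2(TPM + 1) scale was -6.20 (SE 0.20, adjusted p = 1.93e-06) against PN96 and -5.51 against Chip, values that depend on the pseudocount because SPIN is near 0. TUBB3 stood at 505 and 433 TPM in PN96, 315 and 343 in Chip and 18.9 and 18.9 in SPIN, a log2 difference of -4.55 (SE 0.13, adjusted p = 1.08e-06) against PN96. Both libraries of SPIN were far below all 4 others for both genes, although other pan-neuronal genes differed much less. MAP2, a dendritic microtubule protein, was at 209 and 241 TPM in SPIN against 234 and 284 in PN96, a log2 difference of -0.20 (SE 0.14, 95% interval -0.52 to 0.12, adjusted p = 0.293). NEFM, a neurofilament subunit, was the gene that was higher, at 99.3 and 117 TPM against 66.4 and 76.9 (log2 difference 0.59, adjusted p = 0.0356). It was not called with either PN96 library left out, and against Chip its difference was 0.23. DCX was at 188 and 204 TPM (log2 difference -1.09, adjusted p = 0.000403) and ELAVL3 at 118 and 59.96 TPM (-1.75, adjusted p = 0.00180), each below the PN96 and Chip libraries.

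Among progenitor genes, LHX2 was at 29.6 and 11.6 TPM in SPIN against 92.3 and 185 in PN96 and 72.8 and 94.3 in Chip, a log2 difference of -2.74 (SE 0.48, adjusted p = 0.00301) against PN96. OTX1 was at 5.16 and 3.05 TPM (log2 difference -2.51, adjusted p = 0.000212). NES was at 99.97 and 138 TPM and differed by -1.39 (adjusted p = 0.000403). SOX1 and FABP7 were at 32.9 and 21.4 and at 147 and 106 TPM, and TNC at 24.9 and 16 TPM, all below the 4 other libraries. VIM was at 561 and 777 TPM, below PN96 (-0.73, adjusted p = 0.00936) but on a level with Chip, where the difference was 0.02 and the interval -0.37 to 0.40. OTX2 stood out as the progenitor gene with a positive difference, at 24.9 and 96 TPM against 31.5 and 17.2 (log2 difference 1.04, SE 0.59, 95% interval -0.31 to 2.40, adjusted p = 0.191). The proliferation markers were also lower in SPIN, 7 of 7 called, and summed to 163 to 201 TPM against 512 to 576 in PN96. Their part in the progenitor results was not tested.

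Of the 14 genes that split between the PN96 libraries, NEUROG1, NEUROG2, RBFOX3 and TNC were called lower in SPIN with either PN96 library left out. For others, among them NEUROD6, TBR1 and SLC17A7, the result depended on which library was used. NEUROD6 was at 31.2 and 27.5 TPM in SPIN. Its log2 difference was -3.21 (adjusted p = 0.000460) without PN96 replicate 1 and 0.53 (adjusted p = 0.206) without replicate 2. TBR1, at 8.66 and 17.8 TPM, gave -2.52 (adjusted p = 0.00484) and 0.44 (adjusted p = 0.452) in the same order. SLC17A7, at 29.8 and 19.8 TPM, was called with opposite signs, at -1.59 (adjusted p = 0.0107) and 1.08 (adjusted p = 0.0472). So no direction is given for NEUROD6, TBR1 and SLC17A7 against PN96. BCL11B, which did not split, was at 2.44 and 1.73 TPM against 22.4 and 27.4 in PN96 and 17.8 and 15.5 in Chip, with a log2 difference of -3.07 (SE 0.24, adjusted p = 5.81e-05) against PN96. None of the 6 synapse and transmitter genes was called against PN96 (median -0.27), while against Chip SYP (-0.76, adjusted p = 0.0219) and SYT1 (-0.70, adjusted p = 0.0459) were called lower. SNAP25 was at 33.3 and 18.2 TPM against 21.4 and 21.6, a log2 difference of 0.19 (SE 0.30, 95% interval -0.49 to 0.87, adjusted p = 0.641), and SYP at 57.1 and 39.3 TPM against 60.2 and 67.7 (log2 difference -0.42, SE 0.20, 95% interval -0.90 to 0.05, adjusted p = 0.134).

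Further lists were lower as well: 13 of 16 other progenitor genes (median -1.72) and 15 of 24 other neuron genes (median -1.04), with none higher. The Notch receptors NOTCH1 (-4.49) and NOTCH3 (-3.07) were among the progenitor genes with the largest differences. Markers of other tissues moved with these results. Summed markers of cortical hem and choroid plexus were 76.1 TPM in SPIN replicate 1 and 1656 in replicate 2, of which the choroid plexus protein TTR gave 51.7 and 1536 TPM. TTR is also on the liver list, whose sums were 82.2 and 1574 TPM. Mesenchyme markers summed to 425 and 2949 TPM, against 60.1 and 61.3 in PN96, and endothelium markers to 15.8 and 90.7 TPM. The hem gene LMX1A was at 1.49 and 17.9 TPM. Replicate 2 was the higher library in each of these lists, while the summed progenitor level was 1168 and 1344 and the summed neuron level 1583 and 1558 TPM. The part of these tissues in the lower progenitor and neuron levels was not tested.

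The differences of SPIN from PN96 also followed the base composition of the transcripts. Over all genes the median log2 difference was 0.38 below 40% G and C, 0.34 from 40 to 45%, 0.20 from 45 to 50%, -0.03 from 50 to 55%, -0.54 from 55 to 60%, -1.25 from 60 to 65%, and -2.07 at 65% or more (725 genes). Chip minus PN96 had medians between 0.00 and 0.11 in the same bins. Across the 41 listed genes, which share the same libraries, Pearson's r of the SPIN minus PN96 difference with G and C content was -0.62, and -0.47 over the 39 without CTXN1 and TUBB3. For the Chip minus PN96 difference of the same 41 genes r was -0.40, and -0.34 without CTXN1 and TUBB3. The first 240 coding bases of CTXN1 and SNAP25 are shown because CTXN1 had the largest difference of the listed genes and SNAP25 one near 0. They are from GRCh38 with GENCODE 29, at chr19:7925299-7925538 on the minus strand for CTXN1 and within chr20:10275492-10293237 on the plus strand, spliced, for SNAP25. Capitals mark every G and C, which make up 72.1% of the CTXN1 stretch and 48.8% of the SNAP25 stretch.
CTXN1: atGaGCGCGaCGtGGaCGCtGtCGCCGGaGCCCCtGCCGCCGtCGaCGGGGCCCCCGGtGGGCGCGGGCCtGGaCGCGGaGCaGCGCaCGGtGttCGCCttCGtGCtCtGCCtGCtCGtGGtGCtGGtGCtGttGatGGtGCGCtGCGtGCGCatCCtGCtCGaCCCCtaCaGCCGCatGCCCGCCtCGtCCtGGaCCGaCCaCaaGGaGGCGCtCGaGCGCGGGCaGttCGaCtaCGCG
SNAP25: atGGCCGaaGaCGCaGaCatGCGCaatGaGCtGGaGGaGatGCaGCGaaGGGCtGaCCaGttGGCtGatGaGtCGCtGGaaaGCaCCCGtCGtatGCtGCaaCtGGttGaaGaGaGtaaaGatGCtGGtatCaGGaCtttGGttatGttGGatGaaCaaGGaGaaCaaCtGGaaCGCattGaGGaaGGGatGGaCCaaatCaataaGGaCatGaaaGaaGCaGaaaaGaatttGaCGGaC
With the trend on base composition removed, an alternative chosen after seeing the data, 20 listed genes were lower and 1 higher in SPIN than in PN96, and 18 of these calls were shared with the uncorrected result. The log2 difference was then -3.12 for CTXN1, -3.34 for TUBB3, -1.69 for LHX2 and -3.14 for BCL11B. The CTXN1 difference came closer to 0 and the BCL11B difference did not. Against Chip the correction left 16 calls.

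**Figure D4:**
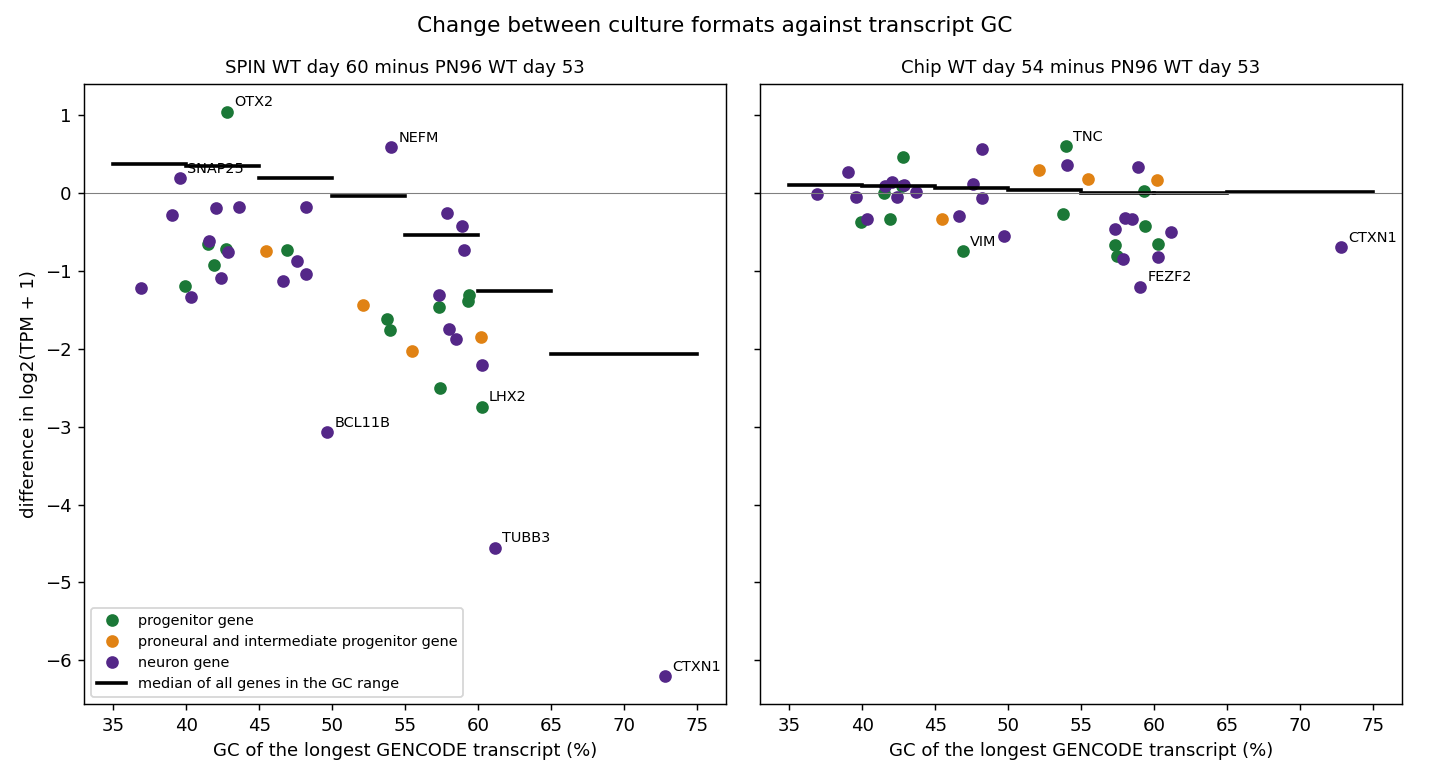
Log2 difference of the listed genes against the G and C content of their transcripts in percent, for SPIN minus PN96 and for Chip minus PN96, with black bars at the median of all genes in each bin. The SPIN bars descend from 0.38 to -2.07 with rising content and the Chip bars stay between 0.00 and 0.11; CTXN1 and TUBB3 lie below the bars in the SPIN panel.

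The next comparison asked how far these genes mark the cortical organoids at all. In CTR at day 19 against CTR stem cells, 28 of 38 tested genes were higher and 4 lower, where 52.5% of all genes were called, 27% higher and 25.5% lower. The median log2 difference was 2.79 against 0.03 over all genes. Against the CTR nephron, hepatic and lung organoids together, 29 of 38 were higher and 3 lower, with 51.4% of all genes called, 19.6% higher and 31.9% lower. The median was 3.69 against -0.15. Both comparisons use the same cortical libraries. PAX6 was at 111 and 144 TPM in cortical organoids and 0.213 and 0.164 TPM in stem cells, a log2 difference of 6.75 (SE 0.46, adjusted p = 1.42e-05). SOX1 was at 135 and 145 TPM in cortical organoids against 0.322 and 0.248 in stem cells (log2 difference 6.78), and POU3F2 at 128 and 153 TPM against 0.150 and 0.232 (log2 difference 6.89). All 4 intermediate genes were higher, NEUROG2 by 6.15 and EOMES by 5.50. Neuron genes were partly up already at day 19, with 14 of 21 higher. DCX was higher by 4.21 and STMN2 by 4.85. Some listed genes were abundant in stem cells, which held NES at 194 and 189.96 TPM, PTPRZ1 at 164 and 171, NEFM at 44.8 and 47.8 and GAP43 at 40.6 and 46.8. The genes that were lower in cortical organoids than in stem cells were RBFOX3 (0.377 and 0.573 against 6.17 and 6.98 TPM, log2 difference -2.36), TNC (-2.35), EMX1 (-1.59) and BCL11B (-1.13). All 4 of these had a positive difference at day 53 against day 19, EMX1 without a call.

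The organoids labelled nephron, hepatic or lung are called non-neural here by label alone. They held some of the listed genes, and their labels were first set against their own markers. Hepatic CTR libraries had AFP, a fetal liver protein, at 5739 and 7447 TPM, and nephron CTR libraries had the kidney factors WT1 at 11.2 and 16.5 and PAX8 at 9.12 and 35.1 TPM. The organoids labelled lung lacked most defining lung markers: in CTR the factor NKX2-1 was at 1.70 and 0.205 TPM and the surfactant gene SFTPB at 0 and 0.158, and 6 eye markers summed to 535 to 585 TPM. Against CTR stem cells, the nephron organoids had 8 listed genes higher and 9 lower of 38 (52.5% of all genes called, 36.7% higher and 15.8% lower). The hepatic organoids had 5 higher and 15 lower (43.3%, 25.1% and 18.2%) and the lung organoids 12 and 10 (39.8%, 20.3% and 19.6%). The medians were 0.03, -0.21 and -0.02, against 0.37, 0.08 and 0.01 over all genes. Rescaled by size factors, the nephron calls became 6 higher and 11 lower, as POU3F2 and CTXN1 lost their call and OTX2 and TUBB3 were called lower. These comparisons share the stem cell libraries. With either CTR stem cell library left out the count of calls was 12 in hepatic and 12 in lung organoids.

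Of the 3 organoid types, lung organoids had the most listed genes above stem cells, at 12. SOX1 was at 7.62 and 10.4 TPM against 0.322 and 0.248 in stem cells, a log2 difference of 2.95 (SE 0.23, adjusted p = 7.57e-05). SLC17A7 was at 16.8 and 24 TPM (log2 difference 2.64, SE 0.24, adjusted p = 0.000153) and MAP2 at 26.9 and 15.1 TPM (log2 difference 2.82, SE 0.31, adjusted p = 0.000287). These were higher in both lung CTR libraries, but the libraries split for others, such as POU3F2 at 30.5 and 1.361 TPM and FABP7 at 49.98 and 8.35. NES was at 412 and 309 TPM. Pluripotency genes were still present in the lung CTR libraries. NANOG was at 13.8 and 77 TPM, POU5F1 at 17.8 and 70 and TDGF1 at 131 and 611, each higher in replicate 2. SOX2 was at 541 and 433 TPM, higher in replicate 1. The part of these genes in the lung results was not tested. In nephron organoids VIM was at 1156 and 1053 TPM against 82.7 and 74.4 in stem cells (log2 difference 3.80, SE 0.31, adjusted p = 3.66e-05), DCX at 27.9 and 33 TPM (log2 difference 2.51, SE 0.25, adjusted p = 0.000100), and the neurofilaments were uneven between libraries, with NEFM at 48.1 and 249 and NEFL at 26.2 and 103 TPM. PTPRZ1, abundant in stem cells, was at 1.29 and 1.21 TPM (log2 difference -6.23, SE 0.13, adjusted p = 2.42e-07). In hepatic organoids no neuron gene was higher and 10 of 21 were lower than in stem cells. EOMES, which is also a factor of definitive endoderm, was higher there at 10.3 and 17.3 TPM in CTR (log2 difference 3.54, SE 0.32, adjusted p = 7.40e-05), and stood at 59.9 and 30.3 TPM in WT at day 21 and 33.4 and 41.4 TPM in WT at day 17. TNC was at 52.5 and 55.2 TPM in hepatic CTR, and VIM at 748 and 948 TPM, with mesenchyme markers summing to 2588 to 4167 TPM in the same libraries and 4148 to 5744 TPM in nephron CTR. Their part in these levels was not tested. NEUROD2, NEUROD6, TBR1 and SLC17A6 stayed near 0 in all 28 non-neural libraries, where the highest value of the 4 was 0.564 TPM, for NEUROD6 in a WT nephron library at day 7.

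**Figure D5:**
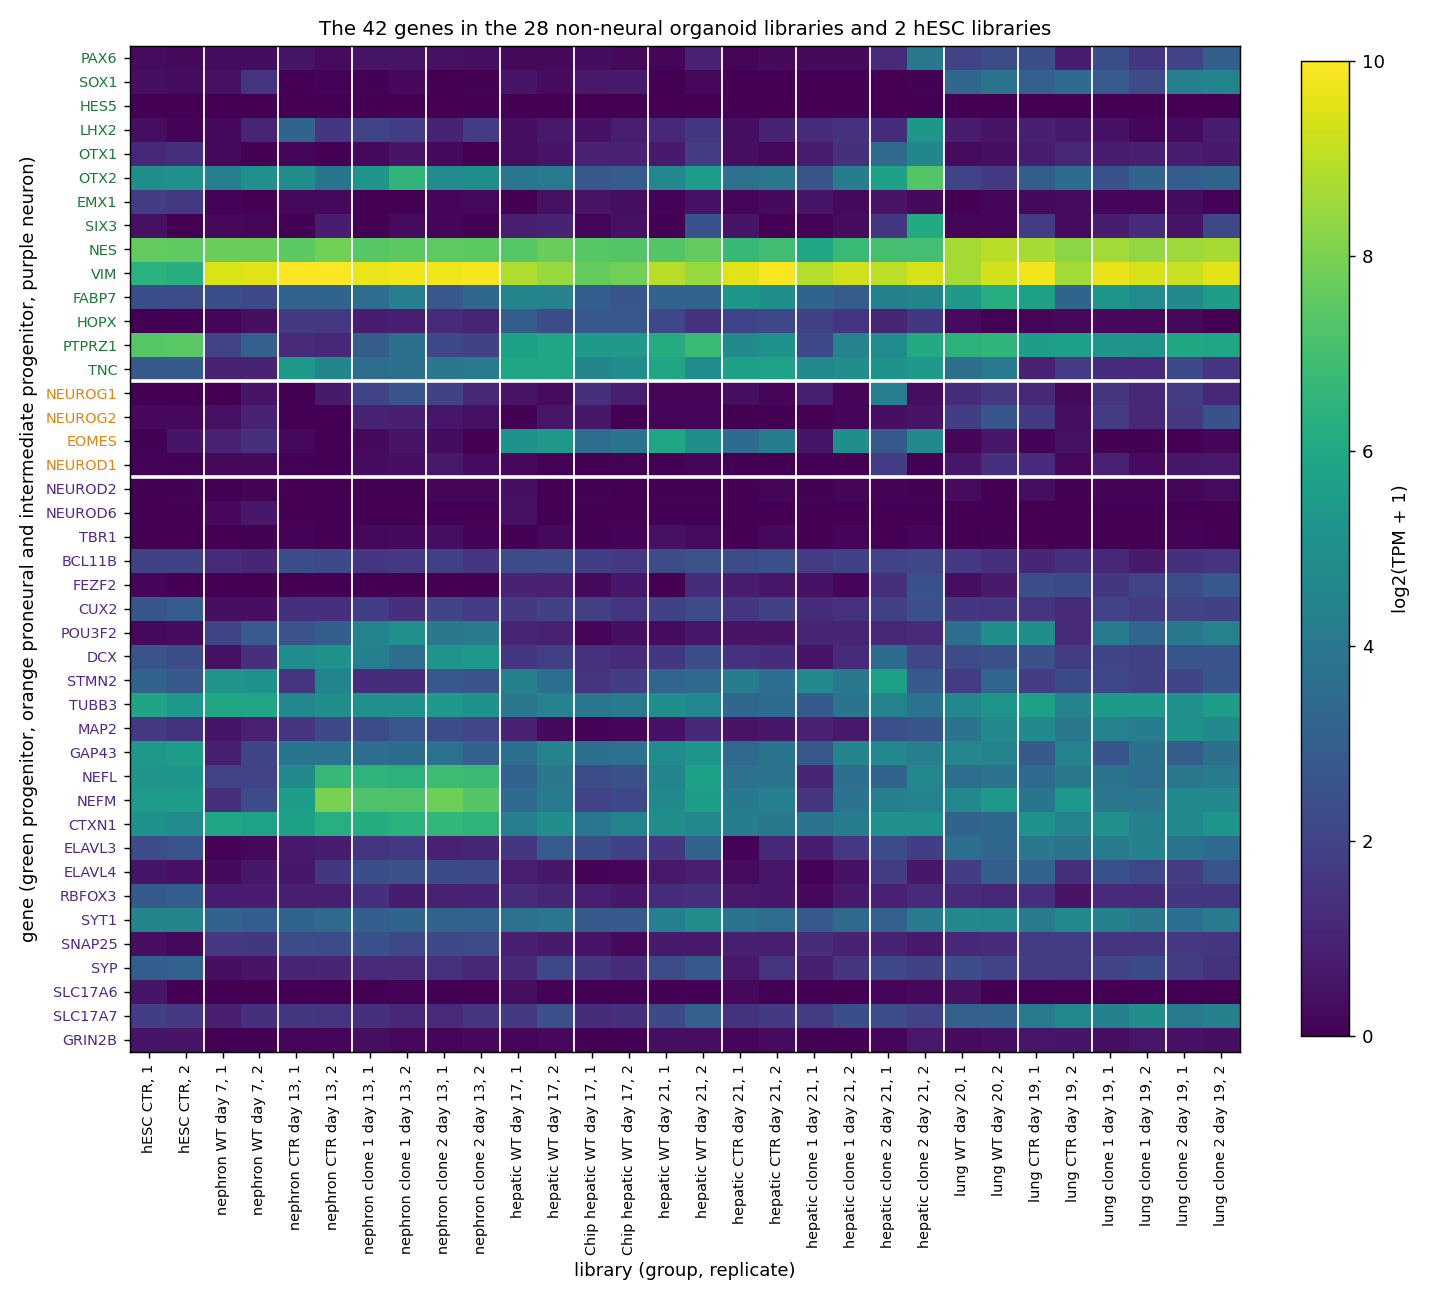
Level of 42 genes, as log2(TPM + 1), in the 28 nephron, hepatic and lung libraries and 2 CTR stem cell libraries, with genes in rows by role. VIM and NES are present throughout and the excitatory neuron factors NEUROD2, NEUROD6 and TBR1 are near 0, while hepatic NEAT1-/- clone 2 replicate 2 shows SIX3 at 69 TPM.

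Listed genes also differed between the libraries of some non-neural groups. At a mean of at least 5 TPM, 6 of 14 were 2-fold apart in hepatic NEAT1-/- clone 1 (5.46% of all genes), all higher in replicate 2, with EOMES at 0.478 and 30.5 TPM. In lung CTR 6 of 16 were (11.3%) and in nephron CTR 5 of 15 (2.32%), the latter LHX2, OTX2, NEFL, NEFM and STMN2. In hepatic NEAT1-/- clone 2, 12 of 20 were 2-fold apart, against 7.86% of all genes. SIX3 was at 2.03 and 69 TPM, LHX2 at 1.499 and 38.6 and PAX6 at 1.31 and 15.4. These factors of the anterior neural plate and eye field were high in replicate 2 only, whereas NEUROG1 at 19.1 and 0.292 TPM and STMN2 at 51.8 and 6.07 were high in replicate 1. In hepatic CTR, SIX3 was at 0.475 and 0 TPM, LHX2 at 0.282 and 0.961, PAX6 at 0.136 and 0.186, NEUROG1 at 0.279 and 0.143 and STMN2 at 17.7 and 11.6.

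The last comparisons asked whether loss of NEAT1 moved these genes. In cortical organoids at day 19, limma called 0 of 34 tested genes after Benjamini-Hochberg adjustment with both clones against CTR, where 0.0722% of all genes were called, 0.0516% higher and 0.0206% lower. Without CTR replicate 1 the count was 1, LHX2 (log2 difference 1.57, adjusted p = 0.0179). At an unadjusted p under 0.05 there were 7, namely SLC17A6, EOMES, ELAVL3, ELAVL4, TUBB3, OTX1 and LHX2. The share of all genes at that unadjusted cut-off is not given, so the 7 cannot be compared with it. The median log2 difference was -0.14 against -0.02 over all genes. It was -0.51 over the 4 intermediate genes and -0.22 over the 19 neuron genes. Genes of a class share the same libraries, and these class medians were not tested. LHX2 had the smallest adjusted p. It was at 57.6 and 31.1 TPM in CTR, 128 and 137 in clone 1 and 68.8 and 65.6 in clone 2, a log2 difference of 1.14 (SE 0.21, 95% interval 0.66 to 1.61, adjusted p = 0.192). Every clone library was above both CTR libraries. EOMES was at 64.4 and 47 TPM in CTR, 55.6 and 30.8 in clone 1 and 26.1 and 26.2 in clone 2, a log2 difference of -0.72 (SE 0.23, 95% interval -1.24 to -0.21, adjusted p = 0.461), and clone 1 overlapped CTR. ELAVL3 was at 57.8 and 58.9 TPM in CTR, 56.1 and 34.3 in clone 1 and 30.6 and 34.1 in clone 2 (log2 difference -0.62, SE 0.18, 95% interval -1.03 to -0.20, adjusted p = 0.436), again below CTR in every clone library. The progenitor sum was 4223 and 4578 TPM in CTR, 4121 and 4024 in clone 1 and 4359 and 4801 in clone 2. The neuron sum was 1534 and 1385 TPM in CTR, 1575 and 1179 in clone 1 and 1302 and 1214 in clone 2. The clones differed from each other in no listed gene after adjustment (limma, 0.0619% of all genes called, 0.0309% each way). At an unadjusted p under 0.05 there were 12 of 34, again without the share of all genes at that cut-off. CUX2 and OTX2 had the smallest adjusted p. CUX2 was at 15.8 and 14.4 TPM in clone 1 and 7.77 and 8.81 in clone 2 (adjusted p = 0.171), and OTX2 at 135 and 137 TPM in clone 1 and 202 and 254 in clone 2 (adjusted p = 0.178).

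The authors' deposited tables give DESeq2 results for each clone against CTR. In the authors' deposited table for cortical clone 1, 2 listed genes were higher, OTX1 (log2 change 0.81, adjusted p = 0.0113) and LHX2 (1.58, adjusted p = 0.0428), where 0.698% of all genes were called. In the authors' deposited table for cortical clone 2, 3 were lower, CUX2 (-0.70), ELAVL3 (-0.83) and the intermediate progenitor factor EOMES (-1.08), where 2.25% were called. No listed gene was called in both cortical clones by the authors' deposited tables. In hepatic clone 2 the authors' deposited table had 8 listed genes higher, MAP2, OTX1, PAX6, LHX2, NEUROG1, OTX2, DCX and SIX3, against 2.66% of all genes. All of these except MAP2 were at least 2-fold apart between its 2 libraries, as described above, and limma over both clones called 0 of 28 listed genes in hepatic organoids (0.00474% of all genes; 6 listed genes at an unadjusted p under 0.05). In lung organoids limma called 0 of 30 (0% of all genes; CUX2 alone at an unadjusted p under 0.05; POU3F2 and NEFM were called without CTR replicate 1) and the authors' deposited tables called none in either clone, with 0.0552% and 0.0894% of all genes called. In hepatic clone 1 the authors' deposited table called FABP7 lower (-2.19, adjusted p = 2.83e-07), against 2.6% of all genes.

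In nephron organoids limma called 2 of 27 listed genes higher and 2 lower (7.23% of all genes called, 2.18% higher and 5.05% lower). POU3F2 was at 4.90 and 7.08 TPM in CTR, 21.2 and 31.5 in clone 1 and 15 and 16.4 in clone 2, a log2 difference of 1.62 (SE 0.20, adjusted p = 0.0103). PTPRZ1 was at 1.29 and 1.21 TPM in CTR, 6.71 and 11.9 in clone 1 and 3.45 and 2.93 in clone 2 (log2 difference 1.52, SE 0.25, adjusted p = 0.0202). TNC was lower, at 40.8 and 22.8 TPM in CTR, 10.9 and 11.9 in clone 1 and 14.5 and 17.1 in clone 2 (log2 difference -1.13, SE 0.22, adjusted p = 0.0347), as was VIM (log2 difference -0.31, SE 0.07, adjusted p = 0.0473). Without 1 library at a time the count of calls ran from 0 to 6, with 0 when clone 2 replicate 2 was left out. For POU3F2, PTPRZ1 and TNC every clone library lay on the same side of both CTR libraries. In the same libraries mesenchyme markers summed to 4148 to 5744 TPM in CTR, 1420 to 1431 in clone 1 and 1849.6 to 2059.8 in clone 2, and their part in the TNC and VIM results was not tested. In the authors' deposited tables, nephron clone 1 had POU3F2, ELAVL4, PTPRZ1 and NEUROG1 higher and TNC, DCX, STMN2 and VIM lower (12.4% of all genes called), and clone 2 had ELAVL4 higher and TNC lower (3.77%). In stem cells limma called 2 of 23 higher and 1 lower (0.6% of all genes, 0.202% higher and 0.398% lower). TNC was at 6.13 and 6.12 TPM in CTR, 1.65 and 1.37 in clone 1 and 1.62 and 1.70 in clone 2, a log2 difference of -1.46 (SE 0.14, adjusted p = 0.00917), without overlap. NEFL (0.54) and OTX2 (0.52) were higher by less. With either CTR library left out the count in stem cells was 0, and with any 1 clone library left out the count was 1. In the authors' deposited tables for stem cells, TNC and VIM were lower and OTX2 and NEFL higher in clone 1 (2.19% of all genes called) and in clone 2 (7.65%), with SYT1 also higher in clone 2. A test of the knockout effect between the 5 cell types called 3 of 38 listed genes, OTX1, TNC and ELAVL3, against 3.71% of all genes. TNC was called lower in nephron organoids and in stem cells, while in cortical organoids at day 19 it was below 1 TPM in CTR at 0.132 and 0.733.

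PF-127 itself was tested in WT stem cells at 24 hours, where 1 of 21 listed genes was higher and 5 lower with PF-127 (1.23% of all genes called, 0.456% higher and 0.777% lower). FABP7 was at 18.3 and 24.9 TPM without PF-127 and 6.69 and 7.39 with it, a log2 difference of -1.48 (SE 0.15, adjusted p = 0.000864), with no overlap. MAP2 (-0.70), NEFM (-0.50), GAP43 (-0.42) and OTX2 (-0.37) were lower by less, and VIM was higher (log2 difference 0.58, SE 0.09, adjusted p = 0.00903). The fit pooled the spread of all 16 libraries of the time course. With the 24 hour libraries alone the count of calls was 0, and without 1 of them at a time it ran from 1 to 3.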

How the data were processed

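RNA was extracted with TRIzol, polyadenylated RNA was taken with poly-T beads and libraries were made with a VAHTS Universal V6 kit, per the labels' protocols; whether counting used strand is not given in the sources used here, so reads of a gene and of an antisense partner cannot be told apart. FastQC 0.11.9, Trim Galore 0.6.7, cutadapt 4.1, STAR 2.7.10a, featureCounts 2.0.1, DESeq2 1.36.0 and R 4.2.0 are named with hg38 (GRCh38), per the submitters' processing notes. The deposited expression table gives TPM, which sum to 1000000 in each library. The authors also deposited 10 tables of DESeq2 results with log2 fold changes, standard errors, and p-values and adjusted p-values per clone against CTR. Their base means, a normalized signal, and Wald statistics, a score, were deposited with them.

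TPM were transformed to log2(TPM + 1), so changes of genes with low values are understated, and genes at 1 TPM or more in at least 2 libraries of a fit were tested with limma 3.58.1 (R 4.3.3; empirical Bayes with trend, two-sided, Benjamini-Hochberg over all genes tested; called at an adjusted p under 0.05; SE and 95% intervals from the same fit). The spread was estimated over the 8 CTR and WT cortical libraries for age and format, over the 10 CTR libraries for tissues, over the 6 libraries of a cell type for loss of NEAT1, over all 30 for differences between cell types, and over 16 for PF-127. The scripts were tested on simulated data. Alternatives were a pseudocount of 0.1, no filter or 5 TPM, rescaling by size factors, a replicate block, compared groups only, each clone alone and each library left out. Trends on base composition and length (lowess span 0.3) and a fit without SPIN were added after seeing the data. G and C content is that of the longest transcript in GENCODE 29. Promoters are from RefSeq GRCh38.p14. Tables and figures were made in Python 3.11.15 with pandas 2.3.3, numpy 2.4.6 and matplotlib 3.10.9.

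The genes named in full are the called ones with the largest change and at least 5 TPM in the higher group; in a class with no call, those listed first; other lists give counts and at most 4 genes each way, and some of their genes are not reported here. The genes and lists were chosen with earlier results of these data known. Counts at an unadjusted p under 0.05 are for listed genes only, and the percentages of all genes are for the adjusted call. No pair of libraries was identical (r 0.969 to 0.993 on the log scale within groups). The replicate numbers were not used as pairs in the main fits, as no comparison had every same-numbered pair correlated over 0.1. This rule cannot exclude pairing. For loss of NEAT1, r ran from 0.077 to 0.231 in hepatic organoids and from -0.116 to 0.360 in lung organoids.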

Additional observations from a re-analysis of the deposited data

Results flagged for a closer look

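The effect of NEAT1 loss was set against cell type in 1 fit over the 30 libraries of the knockout series, and 3 of 38 listed genes differed between the 5 cell types after Benjamini-Hochberg adjustment in limma, where 3.71% of all genes did. For OTX1 the adjusted p of the difference was 0.00305: it stood at 13.5 and 17.5 TPM in cortical CTR, 24.3 and 28.9 in clone 1 and 15.3 and 21.6 in clone 2, but at 0.740 and 1.24 TPM in lung CTR, 0.692 and 0.831 in clone 1 and 0.712 and 0.662 in clone 2, and at 0.339 and 0.149 TPM in hepatic CTR, 0.724 and 1.63 in clone 1 and 10.1 and 23 in clone 2. For TNC the adjusted p was 0.00671, with lower levels in the clones in stem cells and nephron organoids and levels under 1 TPM in cortical CTR; in hepatic organoids it was at 52.5 and 55.2 TPM in CTR, 26.3 and 29.7 in clone 1 and 33.8 and 39.9 in clone 2. For ELAVL3 the adjusted p was 0.0498: it was at 57.8 and 58.9 TPM in cortical CTR, 56.1 and 34.3 in clone 1 and 30.6 and 34.1 in clone 2, and at 0.598 and 0.703 TPM in nephron CTR, 1.93 and 2.24 in clone 1 and 0.886 and 1.11 in clone 2.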

How the results depend on the processing

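Counts of called genes among those listed were recomputed under each alternative. Leaving out 1 library at a time gave 30 to 31 calls for cortical organoids against stem cells (32 with all libraries), 29 to 32 against the other organoids (32), 13 to 19 for nephron (17), 12 to 15 for hepatic (20) and 12 to 25 for lung organoids (22) against stem cells. For day 53 against day 19 it gave 22 to 29 calls (29), for SPIN against PN96 19 to 28 (22), for SPIN against Chip 12 to 18 (22) and for Chip against PN96 0. For loss of NEAT1 it gave 0 to 1 in cortical organoids (0), 0 to 1 in stem cells (3), 0 to 6 in nephron (4), 0 in hepatic (0) and 0 to 2 in lung organoids (0), 2 to 8 for the difference between cell types (3) and 1 to 3 for PF-127 (6). Chip against PN96 gave 1 call, VIM, without the SPIN libraries in the fit. Loss of NEAT1 in nephron organoids gave 2 calls with no filter, 2 with the replicate block and 0 with clone 2 alone. PF-127 gave 0 calls with the compared groups only. The cause of these shifts was not tested, beyond the smaller number of libraries where one was left out. Signs turned with a call on either side for STMN2 in nephron organoids (-1.44 without CTR replicate 2, 1.52 without CTR replicate 1), NEUROG2 at day 53 (0.83 without day 53 replicate 1, -1.77 without replicate 2) and SLC17A7 in SPIN against PN96 (1.08 without day 53 replicate 2, -1.59 without replicate 1). With the trend on base composition removed, SOX1 and SYP, lower before, stood at 0.024 and 0.078 in SPIN against Chip. With the replicate number as a block the calls were 29 for day 53 against day 19, 22 for SPIN against Chip, 23 against PN96, 32 for cortical organoids against stem cells, 2 for loss of NEAT1 in stem cells and 4 for PF-127; same-numbered cortical libraries of the age and format groups correlated at -0.015 to 0.073. Depth is unknown, so no counting error could be given, and genes under 1 TPM are the least certain.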
